A study of Mus musculus with 10 samples.

Results

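The genes Pax5, Ebf1, Tcf3, Foxo1, Ikzf1, Ikzf3, Lef1, Myb, Runx1 and Spi1 encode 10 transcription factors that act in early B cell development. They were chosen by name from the 25579 genes of the expression files, not by a measured value, but with earlier results of these data known. The Pax5 peaks in and near them were taken from both peak lists. All 10 passed the filter on low expression (a TPM, the transcript level normalized for gene length and depth, of at least 1 in at least 1 library), as did 13436 genes in all.

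The study examined mice in which the only functional Pax5 allele encodes a protein with glutamine in place of arginine at residue 31 of the DNA-binding paired domain (R31Q). RNA-seq was performed on C57BL/6 bone marrow cells of 4 genotypes with 2 libraries each: pro-B cells of Pax5(+/+) mice, of Pax5(+/-) mice with 1 null allele, and of Pax5(R31Q/-) mice with the mutant and a null allele, and cells labelled as progenitors of Pax5(fl/fl) Vav-Cre mice, in which Cre expressed throughout the blood lineage deletes both floxed alleles. ChIP-seq with an antibody against the paired domain was done once each on pro-B cells labelled Rag2(-/-), which carry wild-type Pax5, and on Pax5(R31Q/-) pro-B cells, both cultured for a short time on OP9 stromal cells with IL-7. The mutant ChIP library is labelled Rag2(R31Q/-) in one field and Pax5(R31Q/-) in another, so its Rag2 genotype is not clear, and the Rag2 and Pax5 genotypes cannot be told apart in the peak comparison. The labels give no ages. Nothing in the labels says that the 2 libraries of a genotype came from different animals, so p-values measure only the spread between these libraries. The R31Q allele was made by CRISPR/Cas9 cutting in zygotes and was backcrossed.

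These factors form the gene network that makes a B cell. Tcf3 (E2A), Ebf1 and Foxo1 switch on the early B-lineage program, Pax5 then commits the cell to this lineage by activating B cell genes and repressing genes of other lineages, and Ikzf1, Runx1, Myb and Spi1 (PU.1) act from the lymphoid progenitor onwards. Ikzf3 (Aiolos) is the Ikaros relative that appears with the pre-B cell stage, and Lef1 is a nuclear partner of beta-catenin in Wnt signaling and supports early B cell growth. Pax5 binds DNA through a paired domain with an N-terminal and a C-terminal subdomain, each of which reads a separate part of a long recognition sequence.

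The engineered change is printed first because it defines the Pax5(R31Q/-) cells. The guide RNA used to cut exon 2 matches chr4:44697617-44697636 (GRCm38, minus strand, in the coding part of exon 2 of Pax5). The reference and the repair template are shown over chr4:44697602-44697654 on the coding strand, with the PAM of the guide and the bases that differ in capitals.
Guide with its PAM: tcccagatgtagtccgccaaAGG
Reference: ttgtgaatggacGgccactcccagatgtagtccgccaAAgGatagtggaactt
Repair template: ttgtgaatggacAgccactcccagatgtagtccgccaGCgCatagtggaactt
Counted from 1 at the 5′ end of the template of 200 bases, the substitutions are G84A, A109G, A110C and G112C. G84A turns codon 31 from cgg into cag and gives R31Q. The other 3 leave codons 39 and 40 coding for the same amino acids and lie in the last base of the guide match and in the PAM.

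Sequencing depth was alike in 7 of the 8 RNA-seq libraries, with 29916566 to 34488454 reads on genes, and 21625407 in the first Pax5(fl/fl) Vav-Cre library. The pro-B identity of the cells was read from a list of 11 markers. Its summed level was 14822 to 18437 TPM in the 6 pro-B libraries and 9148 and 8698 TPM in the Vav-Cre libraries, where 6 of the 11 were lower than in Pax5(+/+) and 2 were higher. Other markers also moved in the Vav-Cre libraries. All 7 G2/M phase genes were lower (summed 229 and 265 TPM, against 929 to 1796 TPM elsewhere), and all 4 plasmacytoid dendritic cell markers were higher (499 and 779 TPM, against 145 to 185 TPM). Of 7 T cell markers, Cd3d, Cd3e, Cd3g and Bcl11b stayed under the filter and Lck, Thy1 and Tcf7 were higher. Of the NK cell list Nkg7 and Gzma were higher and Klrb1c was lower. Of the erythroid list Klf1 did not pass the test (log2 fold change -0.65). The 8 myeloid markers summed to 2076 and 318 TPM in the Vav-Cre libraries and to 399 to 1531 TPM in the others, and Csf1r was the one member of that list that rose. Of the later B cell list Il2ra was higher, and Cd2, Ms4a1 and Fcer2a were lower. The part of these cell differences in the changes of the Vav-Cre cells was not tested, and fewer cells of a type and less RNA per cell cannot be told apart in bulk RNA. Between Pax5(R31Q/-) and Pax5(+/+) cells, 1 of the 11 pro-B markers was higher (Cd93, log2 0.98) and 1 was lower. Lck was also higher (0.63) and Ms4a1 lower (-2.49), and no other marker passed this test. The part of these differences in the changes of the mutant cells was not tested either.

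In Pax5(+/+) pro-B cells the factor genes were among the more abundant transcripts, and the length-normalized TPM scale allows their levels to be ordered. Tcf3 was highest with 1285 ± 251 TPM (SD, n = 2), followed by Myb, Lef1, Ebf1, Pax5, Ikzf1, Foxo1, Spi1 and Runx1, and Ikzf3 was lowest with 49.8 ± 8.77 TPM. No neighbours in this order had overlapping libraries. Tcf3 lay at the 99.4th percentile of the tested genes and Ikzf3 at the 69.9th. In Pax5(fl/fl) Vav-Cre cells the order was different: Pax5 transcripts ranked first with 1325 TPM, Myb second with 428 TPM, Tcf3, Ikzf1 and Spi1 followed with ranges that overlapped from each gene to the next, and Lef1 and Ikzf3 ranked last with 12.8 and 1.62 TPM.

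**Figure D1:**
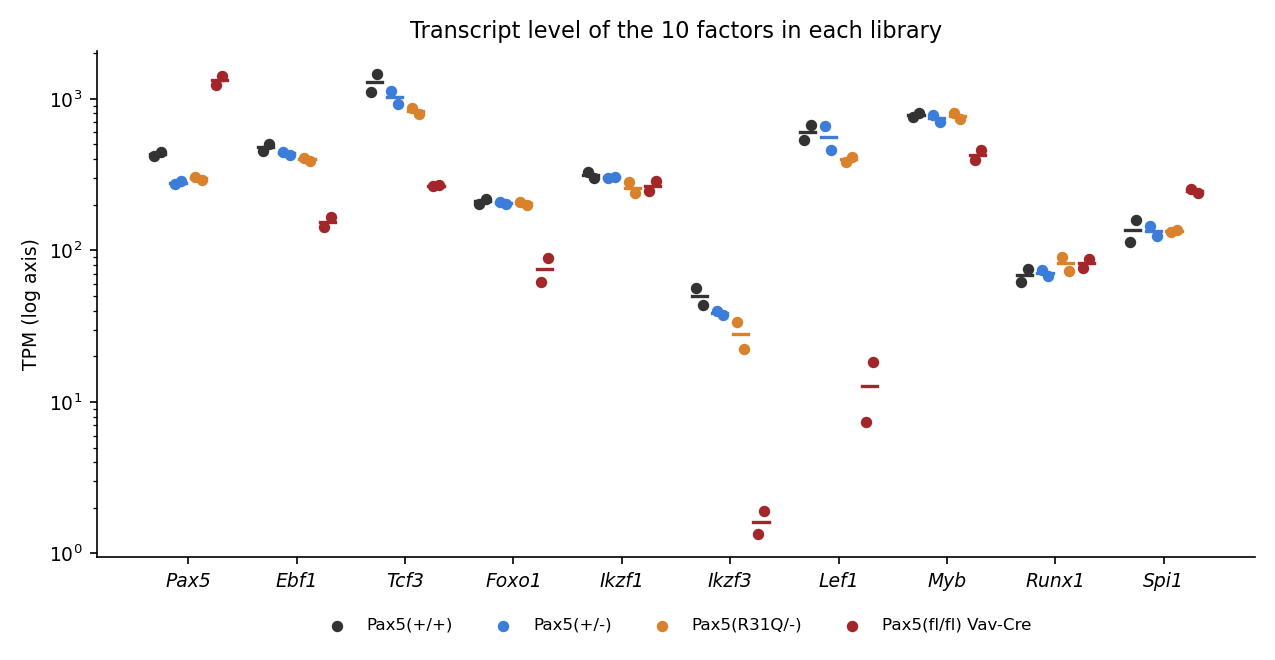
Transcript level in TPM (log axis) of the 10 factor genes in the 8 RNA-seq libraries, colored by genotype; each point is a library and each bar the mean of 2. The Pax5(fl/fl) Vav-Cre libraries lie below all others for Ebf1, Tcf3, Foxo1, Ikzf3, Lef1 and Myb and above all others for Pax5 and Spi1, whereas the 3 pro-B genotypes lie close together.

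The comparison of deletion with wild type asks which factor genes depend on Pax5. Of the 10 factors, 6 were lower in Pax5(fl/fl) Vav-Cre cells than in Pax5(+/+) pro-B cells (Lef1, Ikzf3, Tcf3, Ebf1, Foxo1 and Myb) and 2 were higher (Pax5 and Spi1), as tested with limma on log2(TPM + 1) at a Benjamini-Hochberg adjusted p under 0.05. Over all 13436 genes tested, 19.7% were lower and 16.2% were higher by the same test. Lower genes outnumbered higher ones here (2647 against 2182), but not once libraries were rescaled by median ratios (2502 against 2631) or fitted with limma-voom (2497 against 2751). The median log2 fold change was -1.18 over the 10 factors and -0.11 over all genes. With the added requirement of a ratio of mean TPM over 3 and a mean over 5 TPM, Lef1, Ikzf3, Tcf3 and Ebf1 were called lower and Pax5 higher, and these calls were made for 4.24% and 3.63% of all genes. An exact permutation test of 2 libraries against 2 cannot give a two-sided p below 0.333, so all calls rest on the fit across genes.

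Pax5 itself, the lineage commitment factor, was measured at 418 and 444 TPM in the Pax5(+/+) libraries, 272 and 287 TPM in Pax5(+/-), 306 and 293 TPM in Pax5(R31Q/-), and 1242 and 1409 TPM in Pax5(fl/fl) Vav-Cre. The cells with a single intact or mutant allele thus lay below wild type in all 4 libraries, and the deleted cells lay above it. In Pax5(R31Q/-) cells the transcript was at 69.6% of the wild-type mean (log2 fold change -0.52 ± 0.11 SE, adjusted p = 0.0434 by limma), and in Pax5(+/-) cells at 64.9% (-0.62 ± 0.11, adjusted p = 0.15). Over 9 other ways of fitting, the adjusted p of the first comparison ran from 0.0194 to 0.0774, and with any 1 library of these genotypes left out it was 0.0607 to 0.308, with lower levels each time. In the Vav-Cre cells the Pax5 level was 3.08-fold above wild type (log2 1.62 ± 0.11, adjusted p = 4.92e-05). A value per gene does not show which exons the reads came from, so it does not check the deletion, and the transcripts counted here need not encode a Pax5 protein. Pax5 also has genes on the opposite strand, 5730488B01Rik and Gm12462, and the counting strand is not given in the sources used here.

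**Figure D2:**
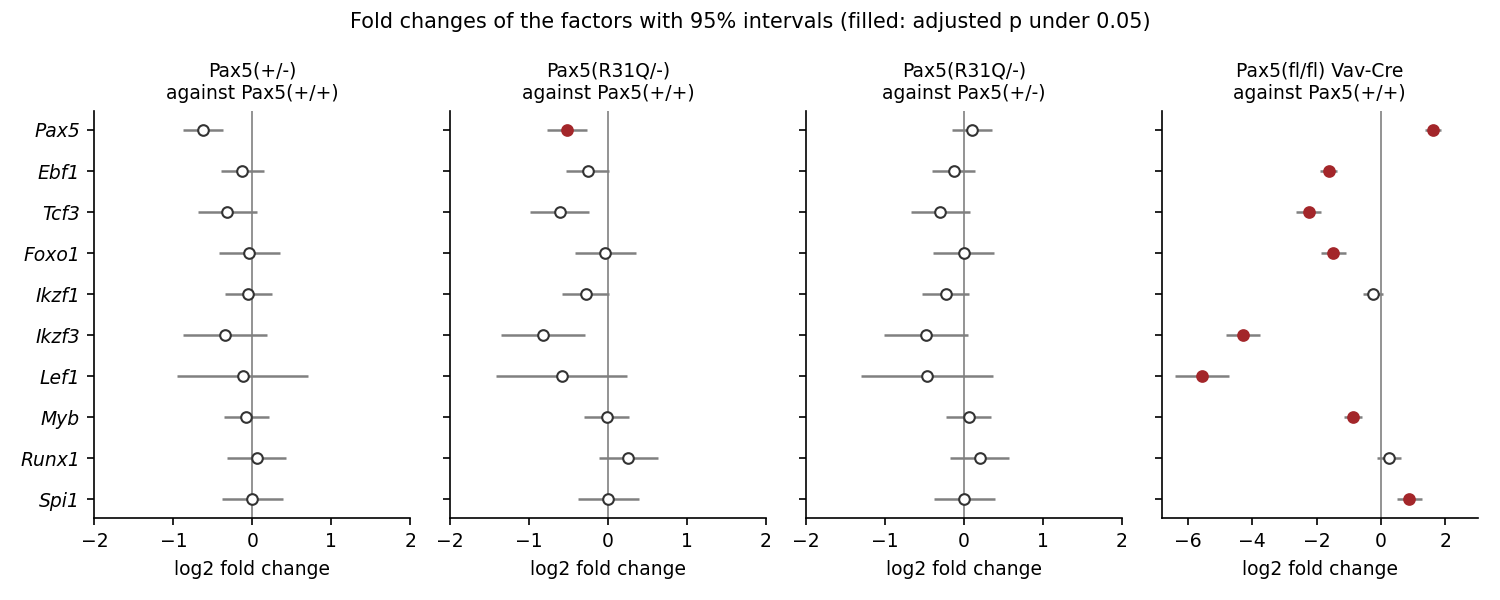
Log2 fold change (x axis) of each factor in 4 comparisons, with bars for the 95% interval of the limma fit; filled points have an adjusted p under 0.05. The panel at the right has a wider x axis: its changes reach -5.56 for Lef1, whereas no change in the other panels exceeds 1 in size.

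Among the factors that specify the B lineage, Ebf1, which opens chromatin at B cell genes, was 454 and 502 TPM in wild type, 448 and 426 TPM in Pax5(+/-), 410 and 387 TPM in Pax5(R31Q/-), and 143 and 166 TPM in the Vav-Cre cells. The mutant libraries were lower than both wild-type libraries, but the difference did not pass the test (log2 fold change -0.26, 95% interval -0.53 to 0.01, adjusted p = 0.285). In the Vav-Cre cells Ebf1 was 3.10-fold lower (log2 -1.63 ± 0.12, adjusted p = 6.5e-05). Tcf3, whose E2A proteins start the program, was 1107 and 1462 TPM in wild type, 1125 and 930 TPM in Pax5(+/-), 869 and 794 TPM in Pax5(R31Q/-), and 265 and 269 TPM in the Vav-Cre cells. The mutant and wild-type libraries did not overlap, yet the mutant difference missed the threshold (log2 -0.61, interval -0.99 to -0.24, adjusted p = 0.0884). This p was 0.0519 to 0.161 over the other fits, and it passed with 1 library fewer, without the first wild-type library (adjusted p = 0.0454). The Vav-Cre cells had 4.81-fold less Tcf3 transcript (log2 -2.25 ± 0.16, adjusted p = 6.33e-05).

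Foxo1, which links loss of growth factor signaling to transcription of the Rag genes, was nearly level in the 3 pro-B genotypes. It was 201 and 220 TPM in wild type, 207 and 203 TPM in Pax5(+/-), 209 and 200 TPM in Pax5(R31Q/-), and 62.1 and 89.2 TPM in the Vav-Cre cells. The mutant difference from wild type was -0.04 on the log2 scale with an interval of -0.42 to 0.35. In the Vav-Cre cells Foxo1 was 2.79-fold lower (log2 -1.49 ± 0.17, adjusted p = 0.000455).

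The Ikaros genes Ikzf1 and Ikzf3 encode related zinc finger proteins. Ikzf1 was 331 and 300 TPM in wild type, 300 and 307 TPM in Pax5(+/-), 281 and 238 TPM in Pax5(R31Q/-), and 247 and 285 TPM in the Vav-Cre cells. It passed the test in none of the 5 comparisons, and its log2 change in the Vav-Cre cells had an interval of -0.54 to 0.05. Ikzf3 was 56.0 and 43.6 TPM in wild type, 40.1 and 37.5 TPM in Pax5(+/-), 33.8 and 22.4 TPM in Pax5(R31Q/-), and 1.34 and 1.90 TPM in the Vav-Cre cells. The means of Ikzf3 stepped down in that order, and the libraries of the 4 genotypes did not overlap. The Vav-Cre cells had 30.8-fold less Ikzf3 (log2 -4.28 ± 0.23, adjusted p = 1.81e-05). In Pax5(R31Q/-) cells the level was 56.4% of wild type (log2 -0.82, interval -1.35 to -0.29), with an adjusted p of 0.102 in the limma fit on TPM and of 0.0329 in limma-voom on reads recovered from the TPM values, within a range of 0.0329 to 0.174 over 9 alternatives. The difference between the changes of the Ikzf1 and Ikzf3 genes was not tested.

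Lef1 showed the largest change of the 10 factors after deletion. It was 537 and 669 TPM in wild type, 659 and 460 TPM in Pax5(+/-), 383 and 414 TPM in Pax5(R31Q/-), and 7.41 and 18.2 TPM in the Vav-Cre cells. The Vav-Cre mean was 47.0-fold lower than wild type (log2 -5.56 ± 0.36, adjusted p = 3.99e-05). Because the Vav-Cre libraries differed 2.46-fold from each other, leaving out either of them moved the log2 change to -4.96 or -6.16. The mutant mean was 66.1% of wild type, with both libraries below both wild-type libraries, but the interval of the log2 change ran from -1.42 to 0.24 (adjusted p = 0.403). Myb, needed for the survival of pro-B cells and for the expression of the IL-7 receptor, was 756 and 807 TPM in wild type, 778 and 706 TPM in Pax5(+/-), 807 and 737 TPM in Pax5(R31Q/-), and 397 and 459 TPM in the Vav-Cre cells. It was 1.83-fold lower in the Vav-Cre cells (log2 -0.87 ± 0.12, adjusted p = 0.00138), and its mutant difference was -0.02 with an interval of -0.30 to 0.27. Mybl2, a relative of Myb that is active in dividing cells, fell by 1.28 on the log2 scale in the same Vav-Cre cells, in which all 7 G2/M genes were lower.

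Runx1 and Spi1 are also used in other blood lineages. Runx1 was 61.5 and 75.7 TPM in wild type, 74.4 and 67.7 TPM in Pax5(+/-), 90.9 and 73.3 TPM in Pax5(R31Q/-), and 75.9 and 88.1 TPM in the Vav-Cre cells. It passed the test in no comparison. Spi1, whose dose steers the choice between B cell and myeloid fates, was 113 and 159 TPM in wild type, 144 and 124 TPM in Pax5(+/-), 133 and 136 TPM in Pax5(R31Q/-), and 254 and 240 TPM in the Vav-Cre cells. It was 1.82-fold higher in the Vav-Cre cells (log2 0.88 ± 0.17, adjusted p = 0.00546). In the same 2 Vav-Cre libraries the summed myeloid markers were 2076 and 318 TPM and the plasmacytoid dendritic cell markers 499 and 779 TPM. A link of Spi1 to these cell types was not tested.

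The comparison of Pax5(R31Q/-) with Pax5(+/+) asks what the mutant protein on a single allele leaves of this network. Of the 10 factors, Pax5 was lower and none was higher, where 2.55% of all genes were lower and 1.62% higher. At an unadjusted p under 0.05, Pax5, Tcf3 and Ikzf3 were lower, as were 9.94% of all genes, and limma-voom called Pax5 and Ikzf3 lower, with 3.77% of all genes. The median over the factors was -0.27, against 0.04 over all genes. In Pax5(+/-) against Pax5(+/+) limma called none of the factors and 0.0223% of all genes (3 lower, none higher). After median-ratio scaling 7 genes were lower and 2 higher, and by limma-voom 25 and 7. Limma-voom also called none of the factors, and 0.239% of all genes. Pax5 alone had an unadjusted p under 0.05 in either fit, where 6.06% of all genes had one by limma and 6.68% by limma-voom.

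Pax5(R31Q/-) against Pax5(+/-) compares mutant with wild-type protein at equal allele number. Limma and limma-voom called none of the 10 factors, and 0.618% of all genes were called by limma. Limma-voom called 1.41% of all genes. No factor had an unadjusted p under 0.05 by limma, where 8.79% of all genes had one, and 1 of 10 did by limma-voom, where 10.5% of all genes did. The 95% intervals of the log2 difference, mutant minus Pax5(+/-), were -0.16 to 0.36 for Pax5, -0.41 to 0.14 for Ebf1, -0.68 to 0.08 for Tcf3, and -0.39 to 0.38 for Foxo1. They were -0.53 to 0.07 for Ikzf1, -1.01 to 0.05 for Ikzf3 and -1.30 to 0.37 for Lef1, so that these libraries leave room for Ikzf3 and Lef1 levels well below those of Pax5(+/-) cells. For Myb, Runx1 and Spi1 the intervals were -0.23 to 0.34, -0.17 to 0.57 and -0.38 to 0.39.

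Against the Pax5(fl/fl) Vav-Cre cells, the mutant cells had more transcript of 6 factors and less of 2, where 19.9% of all genes were higher and 14.7% lower (2677 and 1978 genes). After median-ratio scaling 2473 genes were higher and 2609 lower, and by limma-voom 2530 and 2653. Lef1 was 31.1-fold higher (log2 4.97 ± 0.36, adjusted p = 9.33e-05), Ikzf3 17.4-fold, Tcf3 3.11-fold, Foxo1 2.71-fold, Ebf1 2.58-fold and Myb 1.80-fold. Pax5 was 4.42-fold lower and Spi1 1.84-fold lower (log2 -0.87, adjusted p = 0.00656). Without the first mutant library the Spi1 call was lost (adjusted p = 0.0541). This comparison shares its Vav-Cre libraries with the comparison of deletion and wild type, so the like counts are not independent. A rescaling of the libraries by median ratios moved the median of all genes in this comparison from 0.13 to 0.01 and that of the factors from 1.11 to 0.98, and all 8 calls were also made after it.

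Relatives, partners and inhibitors of the factors were followed in a list of 40 genes, of which 32 passed the filter. In Pax5(R31Q/-) against wild type, 2 of the 32 were lower and none was higher, with a median log2 change of -0.04. These were Spib, a close relative of Spi1 (635 and 641 TPM in wild type, 532 and 446 in Pax5(+/-), 296 and 246 in the mutant, 159 and 266 in the Vav-Cre cells, log2 -1.24 ± 0.23 for the mutant, adjusted p = 0.0279), and Gfi1, a repressor that restrains Spi1 (45.3 and 50.9 TPM, 43.5 and 40.3 TPM, 20.3 and 18.0 TPM, 15.2 and 15.2 TPM, log2 -1.29 ± 0.13, adjusted p = 0.0026). Gfi1 was also the member of this list that differed between the mutant and Pax5(+/-) cells (log2 -1.09 ± 0.13, adjusted p = 0.021). In the Vav-Cre cells 11 of the 32 were lower and 6 were higher than in wild type. The largest changes were those of Runx2 (log2 3.91), Id3 (-3.33), Irf4 (-2.36) and Id2 (2.14). Runx2, a paralog of Runx1, went from 2.67 and 2.37 TPM in wild type to 36.5 and 73.2 TPM, while Runx1 itself passed no test. Id2 and Id3 encode inhibitors that bind E proteins such as those of Tcf3 and Tcf4. Id3 stood at 362 and 521 TPM in wild type and 40.8 and 43.7 TPM in the Vav-Cre cells, and Id2 went the opposite way, from 4.41 and 4.75 TPM to 26.8 and 20.6 TPM.

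Known targets of these factors were followed in a list of 25 genes, all of which were tested. In the Vav-Cre cells 16 were lower and 4 were higher than in wild type (median -1.04). Large changes were those of the cytokine receptor Flt3 (log2 5.12), the transcription factor Bach2 (-2.86) and Vpreb3 (-2.77). In Pax5(R31Q/-) cells Vpreb3 (-0.93), Bach2 (-1.25) and Cd22 (-0.89), an inhibitory receptor, were lower than in wild type and Flt3 (1.21) was higher. Flt3, which marks earlier lymphoid progenitors, was 9.79 and 9.54 TPM in wild type, 18.8 and 21.6 TPM in Pax5(+/-), 23.6 and 23.9 TPM in the mutant, and 385 and 356 TPM in the Vav-Cre cells. The mutant libraries lay above those of Pax5(+/-) and wild type and below those of the Vav-Cre cells. The difference of Flt3 between mutant and Pax5(+/-) cells did not pass the limma test (log2 0.22, adjusted p = 0.719). Bach2 was 166 and 134 TPM in wild type, 122 and 121 TPM in Pax5(+/-), 79.5 and 48.4 TPM in the mutant, and 19.9 and 19.4 TPM in the Vav-Cre cells. Vpreb3 was 4186 and 4361 TPM in wild type, 3811 and 3462 TPM in Pax5(+/-), 2234 and 2240 TPM in the mutant, and 595 and 662 TPM in the Vav-Cre cells. For Bach2 and Vpreb3 both mutant libraries lay below both Pax5(+/-) libraries, but neither difference passed the test (adjusted p = 0.157 and 0.0663). Kit, the stem cell factor receptor, was the target that differed between the mutant and Pax5(+/-) cells (log2 1.13 ± 0.16, adjusted p = 0.0328), with 84.2 and 96.7 TPM against 35.9 and 46.1 TPM, and with 62.8 and 54.7 TPM in wild type.

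Pax5 binding at the factor genes was compared by position, since each genotype had 1 ChIP-seq library and no test across libraries is possible. Peaks were assigned to a gene when their midpoint lay in it or within 50 kb of its ends. The wild-type list held 93 such peaks of 41983 in all, 5 to 15 per gene with a median of 8.5, whereas 10416 other genes with over 5 TPM had a median of 4 (quartiles 2 and 6), without an adjustment for gene length. Of the 93 peaks, 43 lay inside the genes and 32 had the start of the assigned gene as the nearest annotated start. A peak of the Pax5(R31Q/-) list overlapped 67 of the 93 by at least 1 bp, and these are called common (72.0%, Wilson 95% interval 62.2% to 80.1%, which covers counting error only). Of all wild-type peaks 37.5% were common, of those near the other genes over 5 TPM 64.7%. A peak missing from a list was not called at the p threshold of 1e-10 that the authors set, which does not show that the protein was absent.

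**Figure D3:**
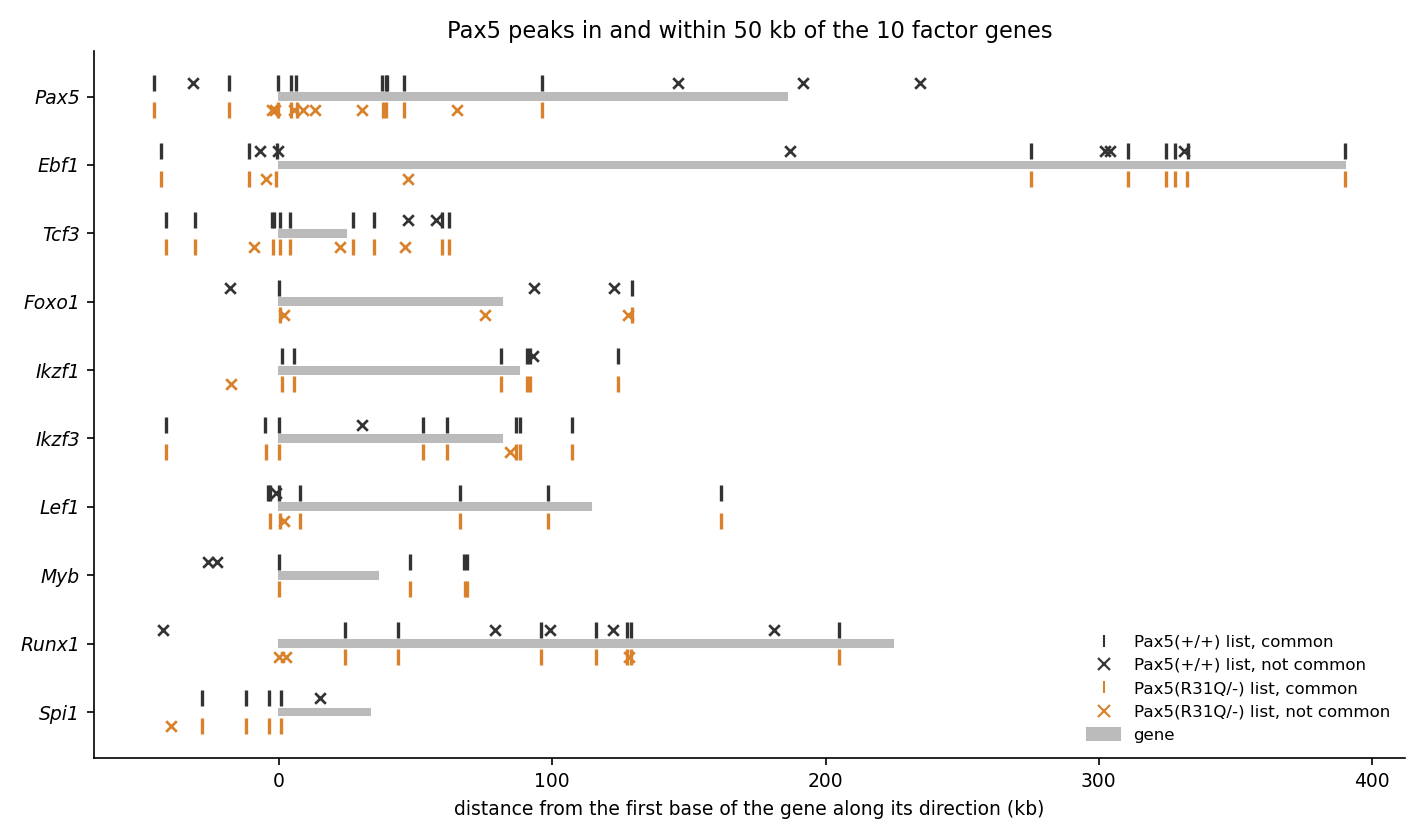
Pax5 peaks of the Pax5(+/+) list (black, above each gene) and of the Pax5(R31Q/-) list (orange, below), by distance in kb from the first base of the gene along its direction; vertical ticks are common to both lists, crosses are in 1 list only, and grey bars are the genes. Ticks in both colors stand at or near the first base of 9 of the 10 genes; at Runx1 the common promoter peak lies at its downstream start. The orange crosses crowd at the start of Pax5.

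The 26 wild-type peaks that were not common at these genes were narrower (median 308 bp) than the 67 common peaks (429 bp), and the same widths over the whole wild-type list were 316 and 468 bp. The common share was highest at Ikzf3 (8 of 9 peaks), Lef1 (7 of 8) and Ikzf1 (6 of 7), and lowest at Foxo1 (2 of 5), Runx1 (7 of 12) and Ebf1 (9 of 15). It was 10 of 12 at Tcf3, 10 of 14 at Pax5, 4 of 6 at Myb and 4 of 5 at Spi1. Lef1 and Ikzf3, the genes that fell most in the Vav-Cre cells, each kept all but 1 of their peaks in the mutant list, and so did Ikzf1, which passed no expression test.

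Every one of the 10 genes had a wild-type promoter peak, with its midpoint within 1 kb of a curated RefSeq start, that was common to the mutant list. Of the 10416 other genes over 5 TPM, 74.4% had a wild-type promoter peak. In all 11 of 13 promoter peaks were common at the factor genes, and 95% at the other genes. The promoter peaks not found in the mutant list were at Ebf1 and Spi1, and both genes had a second promoter peak that was common. At Ebf1 the peak chr11:44617663-44617975, of 313 bp, was centred at -281 bp from the first start, and the common peak of 586 bp at -916 bp. At Spi1 the peak chr2:91097060-91097321, of 262 bp, lay 490 bp downstream of a start inside the gene, and the common peak of 303 bp lay 693 bp downstream of the first start. The middle 120 bases of both lost peaks are shown on the strand of the gene, with matches to GCANCCA on either strand in capitals.
Ebf1, chr11:44617759-44617878: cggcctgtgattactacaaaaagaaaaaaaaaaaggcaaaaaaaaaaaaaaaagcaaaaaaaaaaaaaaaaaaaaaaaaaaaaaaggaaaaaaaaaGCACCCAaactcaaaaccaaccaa
Spi1, chr2:91097130-91097249: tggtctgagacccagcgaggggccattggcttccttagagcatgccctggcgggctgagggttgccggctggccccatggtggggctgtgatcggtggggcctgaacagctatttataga
The Ebf1 stretch is a run of adenines, and 65.8% of the peak is soft-masked as repeat in the genome. The Spi1 stretch has no masked base and no match.

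GCANCCA and GCGTGAC are short stretches of the Pax5 recognition sequence, searched as exact letters on both strands; a match to one can share only its end bases GC with a match to the other. GCANCCA was found in 31 of the 93 wild-type peaks, in 24 of the 67 common and 7 of the 26 others, where 36.1% of all common and 9.39% of all other wild-type peaks held it. GCGTGAC was found in 6, in 5 of the 67 and 1 of the 26, where the shares over the whole list were 10% and 1.73%. The peaks with GCGTGAC are shown on the strand of the match, with 15 bases on each side.
Ebf1, intron 11, common, chr11:44950546-44950582: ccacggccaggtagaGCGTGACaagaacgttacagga
Ikzf1, intron 7, common, chr11:11766170-11766206: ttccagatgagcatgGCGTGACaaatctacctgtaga
Ikzf1, downstream, common, chr11:11808697-11808733: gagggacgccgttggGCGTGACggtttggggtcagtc
Ikzf3, downstream, common, chr11:98458090-98458126: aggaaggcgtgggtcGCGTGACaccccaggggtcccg
Runx1, intron 2, common, chr16:92730159-92730195: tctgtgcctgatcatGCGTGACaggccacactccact
Runx1, intron 2, not common, chr16:92747135-92747171: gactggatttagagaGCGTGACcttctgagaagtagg
Both Runx1 sites lie in the long intron 2, and a match is a description of letters, not a bound site. The 24-base word that recurs most often among the wild-type peaks that are not common, and that 33.1% of all wild-type peaks held, was in none of the 93 peaks at the factor genes. Over the whole list, 52.7% of the peaks that are not common held this word. The shares of 9.39% and 1.73% above thus come from a set of peaks unlike the 26. Of all wild-type peaks without this word, 55.8% were common. The peaks near the other genes over 5 TPM, assigned by the same rule, had a common share of 64.7%. That share lies within the interval given for the 93.

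The promoter of Lef1, the gene with the largest expression difference, is printed as an example of a promoter with a common peak. RefSeq promoters (GRCm38.p6, 250 bases before to 50 bases after a start) were at hand for 8 of the 10 genes, 14 promoters in all. GCANCCA was in 6 of the 14 and in 20.4% of all 32851 promoters, and GCGTGAC was in none of the 14 and in 2.09% of all. Among the 6 are 2 overlapping Lef1 promoters that hold the same matches, so they count 1 stretch 2 times. The Lef1 promoter chr3:131110047-131110346, plus strand, holds 2 matches to GCANCCA, shown in capitals.
Lef1: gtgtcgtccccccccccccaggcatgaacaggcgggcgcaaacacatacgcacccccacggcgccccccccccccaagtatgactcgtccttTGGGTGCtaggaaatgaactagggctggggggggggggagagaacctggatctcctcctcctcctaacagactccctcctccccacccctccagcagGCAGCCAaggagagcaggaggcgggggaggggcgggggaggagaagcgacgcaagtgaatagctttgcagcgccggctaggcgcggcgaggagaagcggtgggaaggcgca
The wild-type peak over it, chr3:131110070-131110480, was 411 bp wide and common. The mutant list held a further promoter peak of 1052 bp at Lef1, chr3:131111732-131112783, centred at -534 bp from a start further inside the gene, where the wild-type list had none.

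The mutant list held 86 peaks at the factor genes, and 22 of them had no wild-type counterpart (25.6%, against 17.7% of the mutant peaks near the other genes over 5 TPM). Pax5 contributed 7 of its 16, and without it the share was 15 of 70 (21.4%). At Runx1 a mutant peak of 629 bp was centred at -59 bp from the upstream start (chr16:92825819-92826447) and a peak of 308 bp at -844 bp from the downstream start, and neither had a wild-type counterpart. Myb had no such peak. At Pax5 the 7 were spread from -2485 bp before the start to exon 6, and the 1 promoter peak was common.

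Of the 10 exons of Pax5, exons 2 and 6 were overlapped by a mutant peak and by no wild-type peak, exon 1 by a peak of both lists, and the other 7 by none. The exon 2 peak, chr4:44697341-44697974, was 634 bp wide and the exon 6 peak, chr4:44645056-44646251, was 1196 bp wide. Exon 2 carries the R31Q change. Exon 6 is where the study placed the change of another engineered Pax5 allele, which these mice are not labelled as carrying. The stretch bounded by the genotyping primers of the R31Q allele (chr4:44697343-44697863, 521 bp) lies wholly in the exon 2 peak and begins 2 bp after its lower coordinate. The stretch bounded by those of the exon 6 allele (chr4:44645226-44645902, 677 bp) lies wholly in the exon 6 peak. Whether amplified DNA added reads to either peak was not tested, and the reads are not used here.

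**Figure D4:**
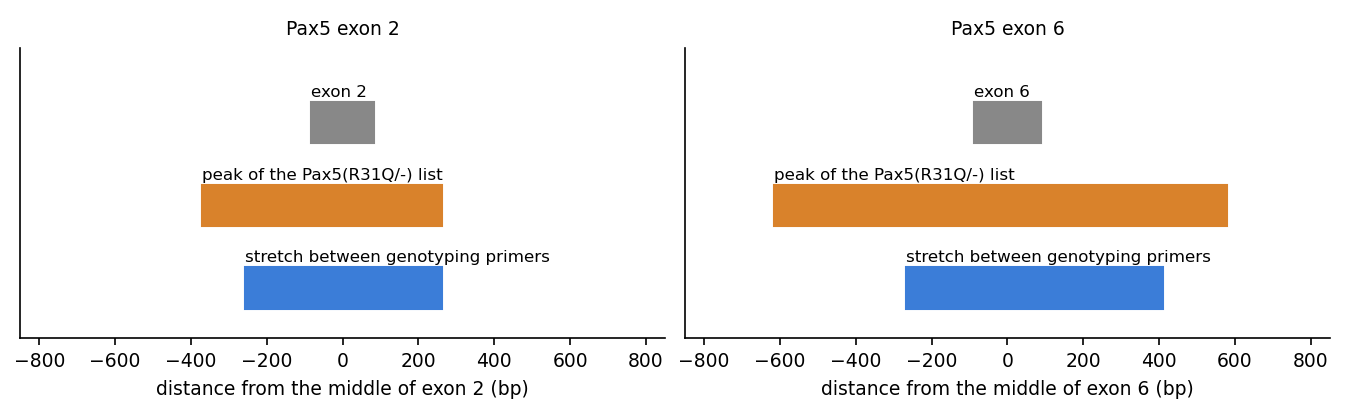
Exon (grey), peak of the Pax5(R31Q/-) list (orange) and stretch bounded by the genotyping primers (blue) at exons 2 and 6 of Pax5, by distance in bp from the middle of the exon along the gene. Both blue bars lie wholly within the orange bars, and the wild-type list has no peak at either exon.

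The genes most like each factor were sought among all genes with a mean of at least 5 TPM, by Pearson correlation of log2(TPM + 1) over the 8 libraries. They are a description, since the 8 points hold 4 genotypes of which the Vav-Cre cells stand apart. Apbb1 and Pitpnm2 were nearest to Ebf1 (r = 0.999 and 0.998), Fbxl12 and Dusp7 to Tcf3 (0.997 and 0.996), Cd24a and Gm37065 to Foxo1 (0.998 and 0.998), Akap12 to Ikzf3 (0.997), and B3gnt2 and Apbb1 to Lef1 (0.998 and 0.997). Cd40 and Phlda1 were nearest to Myb (0.994 and 0.993), Tchp and Hspbp1 to Spi1 (0.992 and 0.992), and Casp9 and Aldh2 to Pax5 (0.996 and 0.995). Cd24a, a surface protein of developing B cells, was also in the list of targets, where it was lower in the Vav-Cre cells (log2 -1.33).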

How the data were processed

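RNA-seq values were deposited as TPM per gene and library, which the authors made from reads on GRCm38 (processing notes name STAR 2.4.2; Bowtie2 2.3.5.1 is listed for the series); the deposited peak positions are in mm10 coordinates from MACS at a p threshold of 1e-10. Limma 3.58.1 (R 4.3.3) with a variance trend was fitted to log2(TPM + 1) of all 8 libraries, for genes with at least 1 TPM in at least 1 library, with Benjamini-Hochberg adjustment over all 13436 genes. Alternatives were other pseudocounts, filters, scalings and spread estimates, each library left out, and other peak windows and overlaps. The steps of the values gave whole reads for all 18206 genes above 0 in at least 2 libraries (relative tolerance 1e-09), and limma-voom on these reads was an alternative. The fit was tested on simulated data. Peak positions were set against RefSeq GRCm38.p6. Members and lists were chosen with earlier results of these data known. Named were the 10 members, list genes past the test for the mutant against Pax5(+/+) or Pax5(+/-), the 4 largest changes of each list in the Vav-Cre cells, and the 2 genes most like each member past a test, apart from a few items that are not reported here; other genes are named only as markers or as examples chosen after their values were seen. The ChIP library of the mutant is labelled Rag2(R31Q/-) in one field and Pax5(R31Q/-) in another; the latter was used. No columns of other series were present.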

Additional observations from a re-analysis of the deposited data

How the results depend on the processing

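The count of factors past the test did not move in 13 of 13 alternatives for Pax5(+/-) against Pax5(+/+) and for Pax5(R31Q/-) against Pax5(+/-), both 0, and for both comparisons with the Vav-Cre cells it was 8, or 7 without the first Pax5(R31Q/-) library (Spi1 lost). For Pax5(R31Q/-) against Pax5(+/+) the count of 1 (Pax5) became 0 with eBayes without a trend, with no filter on low TPM, with only the 2 genotypes compared and with quantile normalization, and 2 with limma-voom on recovered reads (Pax5 and Ikzf3); with 1 library left out it was 0 to 1, and Pax5 was called in none of these 4 fits (the 1 call, without the first Pax5(+/+) library, was Tcf3). With 1 library left out, the lone sample of a genotype is assumed to vary like the others. The 5 calls over 3-fold in the Vav-Cre cells became 6 with a 2-fold rule, which adds Foxo1. The share of common peaks at the factor genes was 63.4% to 75% over 6 alternatives, against 72.0%. Of 650 single fold changes under the alternatives 9 lost a call, 2 gained one and 28 changed sign, none of the 28 past the test in either fit. With 1 library left out, the log2 fold changes that crossed 0 ran, for Pax5(R31Q/-) against Pax5(+/+), Foxo1 -0.10 to 0.024, Myb -0.083 to 0.048 and Spi1 -0.24 to 0.25, and for Pax5(+/-) against Pax5(+/+), Foxo1 -0.10 to 0.026, Ikzf1 -0.13 to 0.018, Lef1 -0.38 to 0.14, Runx1 -0.092 to 0.20 and Spi1 -0.25 to 0.24, and for Pax5(R31Q/-) against Pax5(+/-), Foxo1 -0.033 to 0.029, Myb -0.011 to 0.13 and Spi1 -0.10 to 0.11, and for Pax5(R31Q/-) against Pax5(fl/fl) Vav-Cre, Ikzf1 -0.15 to 0.083 and Runx1 -0.16 to 0.15. Under other settings, values of the opposite sign were Spi1 in Pax5(R31Q/-) against Pax5(+/+) (-0.0057 by limma-voom, -0.0303 after median-ratio scaling) and, against Pax5(+/-), Spi1 (-0.0049 after median-ratio scaling) and Foxo1 (0.0106 by limma-voom, 0.0227 after quantile normalization). Over all genes, Pax5(+/-) against Pax5(+/+) gave 3 calls in limma, 9 after median-ratio scaling, 9 after quantile normalization and 32 by limma-voom, and Pax5(R31Q/-) against Pax5(+/-) gave 83 in limma and 188 by limma-voom. No paired analysis was possible because the labels carry no replicate numbers. With 2 libraries a genotype, the smaller differences of the mutant lie within the intervals given.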
